A study of Mus musculus with 26 samples.

Results

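The Bcl2 family genes that set the threshold of mitochondrial apoptosis were followed across 3 mouse pluripotent states. 10 genes were listed by name: the survival genes Bcl2, Bcl2l1 and Mcl1, the effector genes Bax and Bak1, and the BH3-only genes Bcl2l11, Bid, Bik, Bbc3 and Hrk. Of the 10, 9 have an RNA value among 15646 genes. The same 9 are named on 1 baited promoter fragment each, among 19022 baited fragments with a contact in at least 1 state. All baits means these 19022 below, so baits without a listed contact in any state are left out. The remaining gene, Bbc3, has its start inside a 39.1 kb fragment that was baited under the name of its neighbour Ccdc9, and its RNA was not analysed here.

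The study measured RNA by RNA-seq and promoter contacts by promoter-capture Hi-C (PCHi-C), in which ligated DNA fragments are enriched for baited promoters. WT ESCs are the line E14Tg2a of 129P2/OlaHsd background, kept on gelatin with 15% FBS and 1000 U/ml LIF. Nanog-/- ESCs are the line RCNβH-B(t), 1 derivative of E14Tg2a, kept the same way, with hygromycin during expansion. EpiSCs are an embryo-derived 129S2 line kept on fibronectin in N2B27 with 20 ng/ml activin A and 12 ng/ml bFGF, so that line, strain and medium differ together between EpiSCs and ESCs and cannot be told apart. The RNA values are the authors' medians of 3 WT ESC, 4 EpiSC and 3 Nanog-/- ESC samples, and each contact list combines 2 biological replicates. The PCHi-C samples, titled by lane, number 5 for WT ESCs, 2 for EpiSCs and 5 for Nanog-/- ESCs. With 1 value per state there is no replicate error, and the comparisons below are descriptions without a test.

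In mitochondrial apoptosis, the effector proteins BAX and BAK1 form pores in the outer mitochondrial membrane and release cytochrome c, which starts the caspase cascade. The survival proteins BCL2, BCL-XL (from Bcl2l1) and MCL1 hold the effectors and their activators in check, and the BH3-only proteins bind the survival proteins or activate the effectors directly. Pluripotent cells are known to die readily after DNA damage and lie close to this threshold.

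RPKM (reads scaled to gene length and library size) was higher in EpiSCs than in WT ESCs for most genes, with a median ratio of 1.89 (0.91 on the log2 scale) over 9077 genes at 1 RPKM or more in both. EpiSC values were therefore divided by 1.89 and are called scaled. The ratio of Nanog-/- to WT ESCs was 1.05, and those values were left as deposited. Differences are on the log2(RPKM + 1) scale, which understates the change of low genes, and 2-fold means 1 on that scale. The targeted gene Nanog was at 418 RPKM in WT ESCs, 22.3 in Nanog-/- ESCs and 191 in EpiSCs (scaled). All 7 measured naive markers were more than 2-fold lower in EpiSCs, with Nr0b1 at 0, and 2 of 7 primed markers (Fgf5 and Sox3) were more than 2-fold higher. Zic2 (0.94), Pou3f1 (0.87) and Otx2 (0.07) were higher within 2-fold, and Dnmt3b (-0.55) and Lef1 (-0.66) were lower. Of 4 general pluripotency markers, Sox2 alone passed 2-fold in EpiSCs, at -2.43. In Nanog-/- ESCs, 2 naive markers (Klf4 and Dppa3) and 3 primed markers (Fgf5, Lef1 and Zic2) were more than 2-fold lower and none higher. Markers of other cell types also moved. The summed RPKM of 6 primitive endoderm markers was 3.96 in WT ESCs, 61.8 in Nanog-/- ESCs and 65.1 in EpiSCs (scaled), with 5 and 4 of the 6 more than 2-fold higher. The genes behind the sums differed. Foxa2 was at 48.0 RPKM in EpiSCs (scaled) and 2.54 in Nanog-/- ESCs. Gata4, Gata6 and Sox7 were at 18.5, 16.4 and 9.18 RPKM in Nanog-/- ESCs and at 0.518, 4.33 and 0.19 in EpiSCs. Gata4 was lower in EpiSCs than in WT ESCs (1.29). The sum of 4 mesoderm markers was 7.25, 8.98 and 253, and that of 5 fibroblast markers 61.1, 77.7 and 199, in the same order, with 3 and 4 of them more than 2-fold higher in EpiSCs and none of these markers at 0 in any state. In EpiSCs the mesoderm sum was mostly T, at 3.37, 1.14 and 236 RPKM in that order. Hand1 went the other way, at 0.705, 4.49 and 0.0116 RPKM. The sum of 3 neural markers was lower, at 78.6, 36.6 and 10.7, with Tubb3 alone more than 2-fold lower in both and Neurog2 at 0 in Nanog-/- ESCs, and none of 3 trophoblast markers passed 2-fold (sums of 2.20, 3.46 and 3.17). Their part in the results was not tested, and in these bulk samples fewer cells of a type and less RNA per cell cannot be told apart. Contacts were listed at a CHiCAGO score of 5 or more, a weighted measure of the excess of read pairs over the background at that distance. The lists hold 100492 fragment pairs in WT ESCs, 87369 in EpiSCs and 74931 in the Nanog-/- line, joined by 2177284, 1651286 and 1438555 read pairs.

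Mcl1 and Bcl2, both survival genes, moved in opposite directions between WT ESCs and EpiSCs. Of the 9 members measured, Bcl2 alone was more than 2-fold higher in EpiSCs, where 10.4% of all genes were, and Mcl1 alone was more than 2-fold lower, where 9.66% were. The other 7 members lay within 2-fold, Bcl2l11 at its limit. The median difference over the 9 members, which is the value of the low gene Hrk, was -0.07 against 0 over all genes. Without scaling, 4 members were past 2-fold higher and none lower, where 30.1% and 5.78% of genes were, and the differences of Bax, Bid, Bik and Hrk then changed sign.

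**Figure D1:**
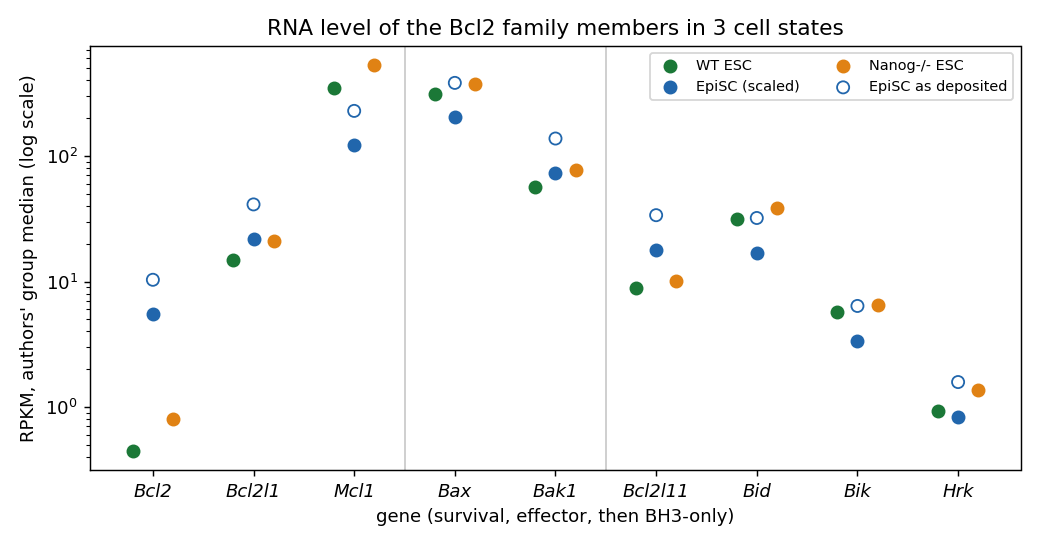
RPKM of the 9 measured members (log axis) in WT ESCs, EpiSCs and the Nanog-/- line, with filled points for the values used and open points for EpiSC values as deposited. Each point is the authors' median of a group, so there are no error bars. Bcl2 is near 0.447 RPKM in WT ESCs and 5.48 in EpiSCs, Mcl1 goes from 350.1 to 121, and each orange point (Nanog-/-) lies above its green one (WT).

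Bcl2, the founding survival gene of the family (chr1:106538178-106714274 in GRCm38, minus strand), was the lowest of the 9 members in WT ESCs, at 0.447 RPKM. It was at 0.804 RPKM in Nanog-/- ESCs and at 5.48 RPKM in EpiSCs (10.3 before scaling). EpiSCs thus stood apart from both ESC lines, with a difference from WT ESCs of 2.16 (2.97 unscaled) and a ratio of scaled RPKM of 12.3. The value ranked above 31.9% of all genes in WT ESCs and above 52.1% in EpiSCs. The exons of Bcl2 overlap those of the antisense gene D630008O14Rik, and the RNA libraries were made with a kit that does not keep strand, so reads of the pair cannot be told apart where they overlap. The pattern over the 3 states came closest to those of Kif26b, 2700089E24Rik and 2510009E07Rik, whose Euclidean distances from Bcl2 on the log2(RPKM + 1) scale, after subtracting the mean of the 3 states, were 0.014, 0.02 and 0.024, and 22 genes lay within 0.1.

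The promoter of Bcl2 is shown because Bcl2 had the widest range of RNA and, in EpiSCs, the most contacts among the members. In RefSeq promoter windows of 300 bases (250 before to 50 after the start, GRCm38.p6), that of Bcl2 at chr1:106714241-106714540 (minus strand) held 44 CpG dinucleotides, a count reached by 2.25% of 32851 windows, whose median is 7. It held 7 copies of GGGCGG, counting both strands, a motif found at least once in 35.7% of windows. The sequence is written 5′ to 3′ with each CpG in capitals.
Bcl2 promoter: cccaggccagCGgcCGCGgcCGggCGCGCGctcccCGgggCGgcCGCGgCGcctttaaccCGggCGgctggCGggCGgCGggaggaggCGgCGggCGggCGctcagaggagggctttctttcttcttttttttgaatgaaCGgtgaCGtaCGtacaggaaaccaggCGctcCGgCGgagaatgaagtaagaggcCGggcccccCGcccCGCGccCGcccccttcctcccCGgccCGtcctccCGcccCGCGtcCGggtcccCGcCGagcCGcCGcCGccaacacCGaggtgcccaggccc

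Bcl2l1, whose main product BCL-XL is a survival protein, was at 14.8 RPKM in WT ESCs, 20.9 in Nanog-/- ESCs and 21.8 in EpiSCs (41.2 before scaling). The difference between EpiSCs and WT ESCs was 0.53, within 2-fold, and 1.41 without scaling. Mcl1, a survival protein with rapid turnover, was the highest of the 9 in both ESC lines, at 350.1 RPKM in WT ESCs and 529 in Nanog-/- ESCs. It was at 121 RPKM in EpiSCs (229 before scaling), a difference of -1.52, or -0.61 without scaling, which is within 2-fold. It ranked above 96.5% of all genes in EpiSCs.

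Ratios within a state do not depend on scaling. Mcl1 RPKM was 783 times that of Bcl2 in WT ESCs, 658 times in Nanog-/- ESCs and 22.2 times in EpiSCs. Against Bcl2l1 the ratios were 23.6, 25.3 and 5.56. Mcl1 therefore supplied 95.8% of the summed RPKM of the 3 survival genes in WT ESCs, 96.1% in Nanog-/- ESCs and 81.6% in EpiSCs, while the share of Bcl2l1 was 4.06%, 3.79% and 14.7% and that of Bcl2 was 0.122%, 0.146% and 3.68%. The ESC lines had nearly the same division and EpiSCs differed from both. The promoter window of Mcl1 at chr3:95658471-95658770 (plus strand), shown as that of the most abundant survival RNA, held 33 CpG dinucleotides, a count reached by 8.56% of windows. CpG is again in capitals.
Mcl1 promoter: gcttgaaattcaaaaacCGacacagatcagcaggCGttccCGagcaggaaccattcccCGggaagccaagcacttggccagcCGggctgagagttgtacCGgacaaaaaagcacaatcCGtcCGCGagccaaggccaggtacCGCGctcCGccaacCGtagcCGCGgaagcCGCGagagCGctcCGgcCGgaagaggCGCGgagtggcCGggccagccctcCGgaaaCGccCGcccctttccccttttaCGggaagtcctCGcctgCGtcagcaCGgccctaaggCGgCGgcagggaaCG

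Neither effector gene passed 2-fold on the scaled values. Bax was at 312 RPKM in WT ESCs, 375 in Nanog-/- ESCs and 203 in EpiSCs (383 before scaling), a difference of -0.62 for EpiSCs that becomes 0.29 without scaling. Bak1 was at 56.4, 77.8 and 73.2 RPKM (138 before scaling), a difference of 0.37, or 1.28 without scaling. Bax was the more abundant effector in every state, by a ratio of 5.54 in WT ESCs, 4.82 in Nanog-/- ESCs and 2.78 in EpiSCs. Bax shares exon sequence on the same strand with Gm45808, and Bak1 overlaps Ggnbp1 on the other strand, so some of their reads could belong to either gene. Mcl1 stood above Bax in the ESC lines (ratios of 1.12 and 1.41 in WT and Nanog-/- ESCs) and below it in EpiSCs (0.598).

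Among the BH3-only genes, Bid was above Bcl2l11 in both ESC lines and the pair was about equal in EpiSCs. Bcl2l11, which encodes the activator BIM, was at 8.81 RPKM in WT ESCs, 10.0 in Nanog-/- ESCs and 17.9 in EpiSCs (33.8 before scaling), a difference of 0.95. It lies at the 2-fold limit, with 1.02 and 0.99 at pseudocounts of 0.1 and 0.5, 1.09 when scaling used genes at 10 RPKM or more, and 1.83 without scaling. Bid, whose product is cleaved by caspase-8 and links death receptors to mitochondria, was at 31.6, 38.5 and 17.0 RPKM (32.1 before scaling), a difference of -0.85 for EpiSCs that is 0.02 without scaling. The ratio of Bcl2l11 to Bid, which scaling does not touch, was 0.279 in WT ESCs, 0.26 in Nanog-/- ESCs and 1.05 in EpiSCs.

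Bik and Hrk were the lowest of the BH3-only genes measured. Bik, a BH3-only protein found mainly at the endoplasmic reticulum, was at 5.74 RPKM in WT ESCs, 6.51 in Nanog-/- ESCs and 3.39 in EpiSCs (6.39 before scaling). Hrk, a BH3-only gene best known from neurons, was at 0.927, 1.37 and 0.839 RPKM (1.58 before scaling). The EpiSC differences of Bik and Hrk were -0.62 and -0.07, and 0.13 and 0.42 without scaling. As shares of the summed RPKM of the 4 measured BH3-only genes, Bid made up 67.1% in WT ESCs and 43.5% in EpiSCs, and Bcl2l11 made up 18.7% and 45.7%.

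In Nanog-/- ESCs, all 9 members were higher than in WT ESCs and none by 2-fold. The differences ran from 0.16 for Bik to 0.60 for Mcl1, with a median of 0.30 against 0.01 over all genes. Those of Bcl2l1, at 0.47, and Bak1, at 0.46, came next, and the rest ran from 0.16 to 0.32. Of all genes, 51.3% were higher in Nanog-/- ESCs, and 56.2% of those at 1 RPKM or more, whereas only 1.69% were more than 2-fold higher and 1.35% more than 2-fold lower. After division by 1.05 the 9 members were still above WT ESCs, with differences from 0.10 for Bik to 0.53 for Mcl1. Both comparisons use the same WT ESC values, so that a low WT ESC value of a gene would enter each of them.

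Across the 3 lists the 9 baited promoters had 65 contacts in WT ESCs, 70 in EpiSCs and 28 in the Nanog-/- line, none of them between chromosomes. The median per member was 7, 5 and 3, and the median of all baits was 3, 3 and 2. Counting contacts plus 1, so that baits without any enter, Bcl2 and Mcl1 had at least 2-fold more contacts in EpiSCs than in WT ESCs and Bax and Bik at least 2-fold fewer, where 16.4% and 27.7% of all baits did. In Nanog-/- ESCs, Bak1 and Mcl1 had at least 2-fold more and Bax, Bcl2l1 and Bcl2l11 at least 2-fold fewer, where 7.64% and 33.3% did. Of the 65 WT ESC contacts, 29 were also listed in EpiSCs (44.6%, Wilson 95% interval 33.2% to 56.7%), where the share over all WT ESC pairs was 39.6%. Over the contacts of all baits, counted from each baited end as for the members, it was 40.3%. Bcl2 alone supplied 13 of the 29, out of its 14 WT ESC contacts, so the members' share rests largely on 1 bait. Bax, with the most WT ESC contacts, had 3 of 20 listed in EpiSCs and 3 of 20 in Nanog-/- ESCs. In Nanog-/- ESCs 17 of the 65 were listed (26.2%, 17.0% to 38.0%), below the 41.8% of all pairs and the 42.7% of the contacts of all baits. This share depends on the setting. It was 40.0% when a neighbouring fragment counted too and 48.4% for WT ESC contacts with a score of at least 7, where the contacts of all baits gave 53.4% and 60.6%. These intervals cover counting error only, and contacts of 1 bait share that bait. The Nanog-/- list holds the fewest pairs and read pairs, and 25.3% of all baits had no contact in it, compared with 10.3% in WT ESCs and 15.0% in EpiSCs. The part of the smaller list in the lower counts was not tested.

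**Figure D2:**
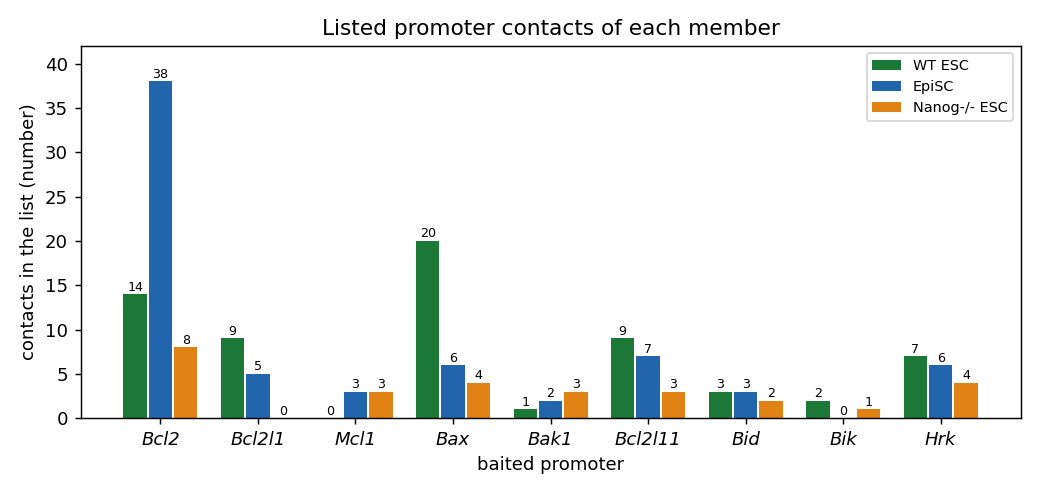
Number of listed contacts of each member's baited promoter in the 3 cell states (bars from 0, with the count above each). Bcl2 has 38 contacts in EpiSCs against 14 and 8 in the ESC lines, and Bax has 20 in WT ESCs against 6 and 4.

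Bcl2 was the member with most contacts in EpiSCs. Its bait had 14 contacts in WT ESCs, 38 in EpiSCs and 8 in the Nanog-/- line, joined by 198, 581 and 71 read pairs. Of all baits, 0.71% had 38 or more contacts in EpiSCs and 1.34% in WT ESCs. Of its 14 WT ESC contacts, 13 were listed again in EpiSCs, and in those 13 the read pairs went from 185 to 241, a ratio of 1.30, where the ratio over all pairs shared by these lists was 0.835. In the 6 contacts shared with Nanog-/- ESCs they went from 103 to 58, a ratio of 0.563, where that over all shared pairs was 0.618. With a score of at least 10, 14 EpiSC contacts were left against 2 in each ESC list.

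The added EpiSC contacts lay within and beyond the Bcl2 gene. Partner fragments that overlapped the gene numbered 3 in WT ESCs, 16 in EpiSCs and 2 in the Nanog-/- line. Those beyond its 3′ end numbered 10, 20 and 4, and those upstream 1, 2 and 2. Of the 24 contacts found in EpiSCs alone, 13 were in the gene and 11 beyond its 3′ end, with 5 to 22 read pairs each and scores of 5.09 to 15.39, and none of these partners was a baited promoter. The intronic stretch between 83.1 and 139 kb from the bait had contacts in EpiSCs alone.

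6 partners of Bcl2 occurred in all 3 lists. The highest score in WT ESCs and EpiSCs was that of the baited fragment of D630008O14Rik at 174 kb, over exon sequence of Bcl2 near its 3′ end, with 21 read pairs in WT ESCs (score 20.63), 30 in EpiSCs (32.9) and 7 in the Nanog-/- line (8.23). The fragment beside it at 171 kb had 24, 29 and 10 read pairs, and another at 199 kb, in the intergenic region, had 15, 28 and 12. The upstream neighbour Kdsr, a gene of sphingolipid synthesis, was in contact at 44.3 kb with 19, 18 and 11 read pairs. Vps4b, of the ESCRT machinery, was a partner at 81.3 kb in EpiSCs (9 read pairs) and Nanog-/- ESCs (6). Phlpp1, which encodes an AKT phosphatase, was a partner at 543 kb with 11 read pairs in WT ESCs and 11 in EpiSCs. The RPKM of these 3 neighbours lay within 2-fold over the states, with 7.13, 9.28 (scaled) and 7.16 for Phlpp1, 14.5, 9.96 and 11.3 for Kdsr, and 27.6, 22.4 and 26.6 for Vps4b, in WT ESCs, EpiSCs and the Nanog-/- line. The bait of Phlpp1 itself had 16 contacts in WT ESCs and 33 in EpiSCs, that of Kdsr 2 and 3, and that of Vps4b 0 and 1. More contacts in EpiSCs were thus not particular to Bcl2 at this locus.

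**Figure D3:**
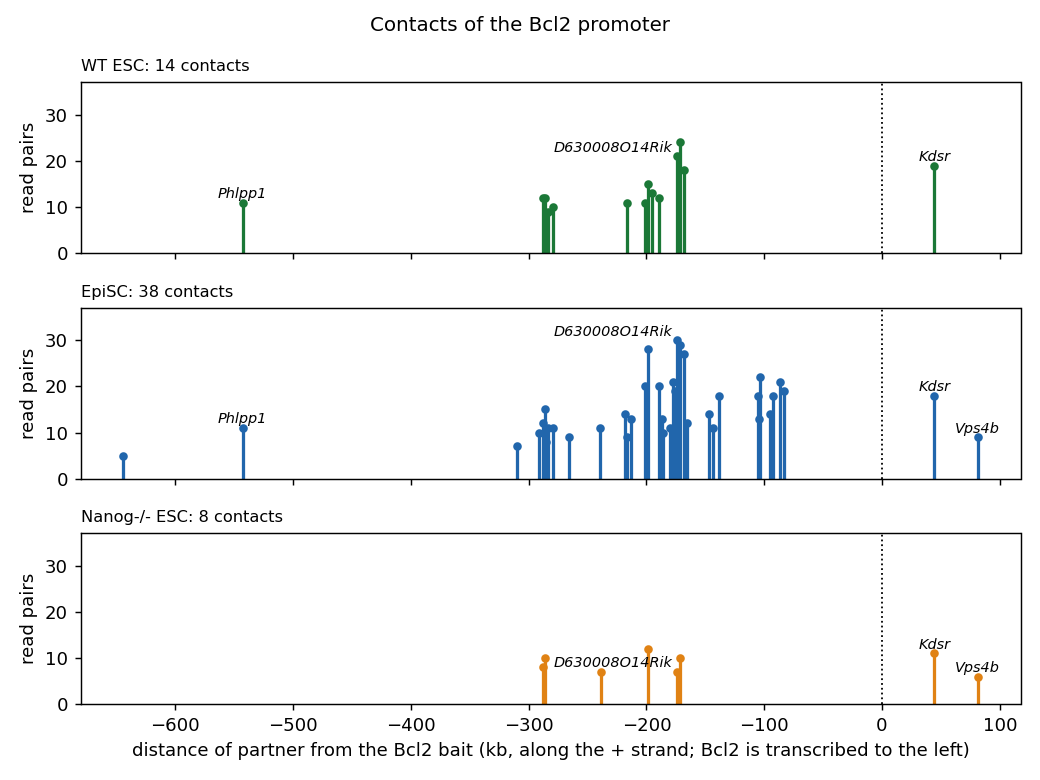
Read pairs (vertical axis) of each Bcl2 contact against its distance from the bait in kb (horizontal axis), 1 panel per cell state, with baited partners named. Contacts between 83.1 and 139 kb to the left, inside the Bcl2 gene, are drawn in the EpiSC panel alone, while the cluster near 286 kb is present in all 3 panels.

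The shortest partner of Bcl2 found in all 3 lists lies at chr1:106428999-106429187 (GRCm38, plus strand), an intergenic fragment of 189 bases at 286 kb. It was joined to the bait by 12 read pairs in WT ESCs (score 8.0), 15 in EpiSCs (14.66) and 10 in the Nanog-/- line (10.76). Capitals mark the bases that remain of the HindIII sites at its ends.
Bcl2 contact fragment: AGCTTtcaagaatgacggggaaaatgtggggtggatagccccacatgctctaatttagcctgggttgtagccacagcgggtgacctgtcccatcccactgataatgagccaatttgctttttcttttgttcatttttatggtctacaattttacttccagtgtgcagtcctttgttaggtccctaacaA

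Mcl1 had no contact in WT ESCs and 3 each in EpiSCs and Nanog-/- ESCs. Its neighbours Ensa, which encodes a phosphatase inhibitor of mitosis, and Adamtsl4, which encodes an extracellular matrix protein, were partners in both lists, at 31.4 and 30.3 kb. Ensa had 21 read pairs in EpiSCs and 9 in the Nanog-/- line, and Adamtsl4 had 19 and 10. The remaining contact in each list was with a fragment over the Mcl1 gene itself, at 4.04 kb in EpiSCs (74 read pairs) and at 7.27 kb in Nanog-/- ESCs (19). The scores ran from 5.47 to 7.22, close to the limit of 5. The contact count of Mcl1 was thus higher in both states, while its RNA was higher in Nanog-/- ESCs and lower in EpiSCs.

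Bcl2l1 contacted only other baited promoters, with 9 contacts in WT ESCs, 5 in EpiSCs and none in the Nanog-/- line. H13, which encodes the signal peptide peptidase, was the partner of highest score, at 169 kb with 15 read pairs in WT ESCs (score 28.51) and 15 in EpiSCs (26.51). The spindle gene Tpx2 at 9.41 kb had 36 and 31 read pairs, Mcts2 at 150.0 kb had 12 and 9, and Id1, an inhibitor of bHLH factors, at 102 kb had 9 and 7. These 4 were shared by the lists of WT ESCs and EpiSCs. Of the 5 partners in WT ESCs alone, 3 were baits of the defensin genes Defb29, Defb45 and Defb25, with 3 to 4 read pairs each, and the others were 1700030C14Rik (6) and Tm9sf4 (3). AL731857.1 at 68.4 kb was a partner in EpiSCs alone, with 9 read pairs.

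Bax had 20 contacts in WT ESCs, 6 in EpiSCs and 4 in the Nanog-/- line, with 185, 93 and 30 read pairs. In WT ESCs, 92.8% of all baits had fewer contacts. They covered a gene-dense stretch, at 58.3 to 290 kb from the bait, and 15 of the 20 were in that list alone, with 5 to 17 read pairs and scores of 5.29 to 10.74. With a score of at least 7, 9 remained in WT ESCs and 2 in each of the other lists. The bait of Gm16022, on a fragment over Plekha4 and Hsd17b14 at 89.7 kb, was the only partner in all 3 lists, with 16, 17 and 8 read pairs in WT ESCs, EpiSCs and the Nanog-/- line. The highest score in WT ESCs was that of a fragment over Hsd17b14 at 98.2 kb (14 read pairs, score 10.74), and in Nanog-/- ESCs that of the bait of Mamstr at 174 kb (9, 11.53). Rpl18, a ribosomal protein gene at 252 kb, was a partner in WT ESCs (9) and EpiSCs (6).
The other baited partners in WT ESCs alone were Ppp1r15a, Fut1, Izumo1, Fut2, Ntn5, Dbp and Fam83e, with 6 to 12 read pairs each, and Bcat2 was a partner in Nanog-/- ESCs alone, with 6.

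Bak1 had 1 contact in WT ESCs, 2 in EpiSCs and 3 in the Nanog-/- line. Its partner in all 3 was the bait of 2900010M23Rik, at Uqcc2 and 109 kb away, with 10, 10 and 8 read pairs. An intronic fragment of Ggnbp1 and Zbtb9 at 13.7 kb was added in EpiSCs (28) and Nanog-/- ESCs (16), and the bait 1700062I23Rik near Itpr3 in Nanog-/- ESCs (7).

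Bcl2l11 had contacts on both sides, 9 in WT ESCs, 7 in EpiSCs and 3 in the Nanog-/- line. Most partners lay in Gm14005, a long noncoding RNA gene also known as Morrbid, which is known from myeloid cells as a regulator of Bcl2l11, with 8 in WT ESCs, 4 in EpiSCs and 2 in the Nanog-/- line. They were 178 to 279 kb from the bait and had 5 to 9 read pairs each. The only partner in all 3 lists was the baited fragment of AL844481.1 at 236 kb on the other side, within Acoxl. It had 12 read pairs in WT ESCs (score 10.29), 22 in EpiSCs (29.63) and 6 in the Nanog-/- line (6.83), the highest score of Bcl2l11 in each list. In EpiSCs 3 fragments of Acoxl were partners, against 1 in each ESC list.

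Bid and Bik had few contacts. Bid had 3 in WT ESCs, 3 in EpiSCs and 2 in the Nanog-/- line. Its partner in all 3 was the 245-base baited fragment over exon sequence of Pex26, a gene of peroxisome assembly, at 268 kb, with 22 read pairs in WT ESCs (score 22.55), 31 in EpiSCs (18.56) and 7 in the Nanog-/- line (8.15). The bait of Gm15856 at 312 kb, near Tuba8, was the other partner shared by the ESC lists, with 11 and 8 read pairs, and had the higher score of the pair in Nanog-/- ESCs (10.47). Bik contacted its neighbour Mcat at 19.2 kb in WT ESCs (37, score 31.08) and Nanog-/- ESCs (21, 6.21) and Tspo at 30.1 kb in WT ESCs (8), and had no contact in EpiSCs. The Pex26 fragment at chr6:121183561-121183805 (GRCm38, plus strand) is shown as the partner of Bid that all lists share, again with the bases of the HindIII sites in capitals.
Bid contact fragment: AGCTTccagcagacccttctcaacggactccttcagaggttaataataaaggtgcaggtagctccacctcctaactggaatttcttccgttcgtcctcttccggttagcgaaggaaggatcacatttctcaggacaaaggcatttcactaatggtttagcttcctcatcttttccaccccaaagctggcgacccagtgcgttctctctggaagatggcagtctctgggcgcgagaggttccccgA

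Hrk was the only member with contacts over 800 kb, the distance above which the study calls an interaction long-range. It had 7 contacts in WT ESCs, 6 in EpiSCs and 4 in the Nanog-/- line, of which 4, 3 and 2 were over 800 kb. Among all baits, 4.64%, 4.48% and 1.31% had any contact at that distance, and 0.468% had 4 or more in WT ESCs. These long-range pairs made up 1.3%, 1.78% and 0.37% of all pairs within chromosomes.

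The long-range partners of Hrk included promoters of developmental transcription factors. Lhx5, a LIM homeobox gene, was in contact at 2262 kb in all 3 lists, with 14 read pairs in WT ESCs (score 29.34), 7 in EpiSCs (14.82) and 5 in the Nanog-/- line (7.14). The T-box gene Tbx3, itself one of the naive markers, was a partner at 1500 kb in WT ESCs (13, 22.03) and Nanog-/- ESCs (5, 6.25) and was not listed in EpiSCs. Tbx5 at 1663 kb (6, 7.92) and an exon of Gm16064 beside Tbx3 at 1488 kb (5, 6.43) were partners in WT ESCs alone. In EpiSCs the other long-range partners were the fragment next to Lhx5 at 2258 kb (4, 6.66) and the bait AC111115.1 at 2115 kb (4, 5.73). With so few read pairs, a contact missing from a list is not shown to be absent, and the part of depth in this was not tested.

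RNA of the Hrk partners differed widely. Tbx3 was at 14.9 RPKM in WT ESCs, 24.1 in Nanog-/- ESCs and 0.279 in EpiSCs (scaled). Its contact was listed in both ESC lines, with 13 read pairs in WT ESCs and 5 in Nanog-/- ESCs, where Tbx3 RNA was higher. A relation of this contact to RNA was not tested. Lhx5 was at 0.00986, 0.0408 and 0.035 RPKM and Tbx5 at 0.0478, 0.133 and 0.197, near 0 throughout. Close to Hrk, the bait of Rnft2 at 76.2 kb was a partner in all 3 lists with 25, 20 and 26 read pairs in WT ESCs, Nanog-/- ESCs and EpiSCs. Tesc at 140 kb was listed in WT ESCs (15) and EpiSCs (9), and Med13l at 387 kb in Nanog-/- ESCs (4).

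**Figure D4:**
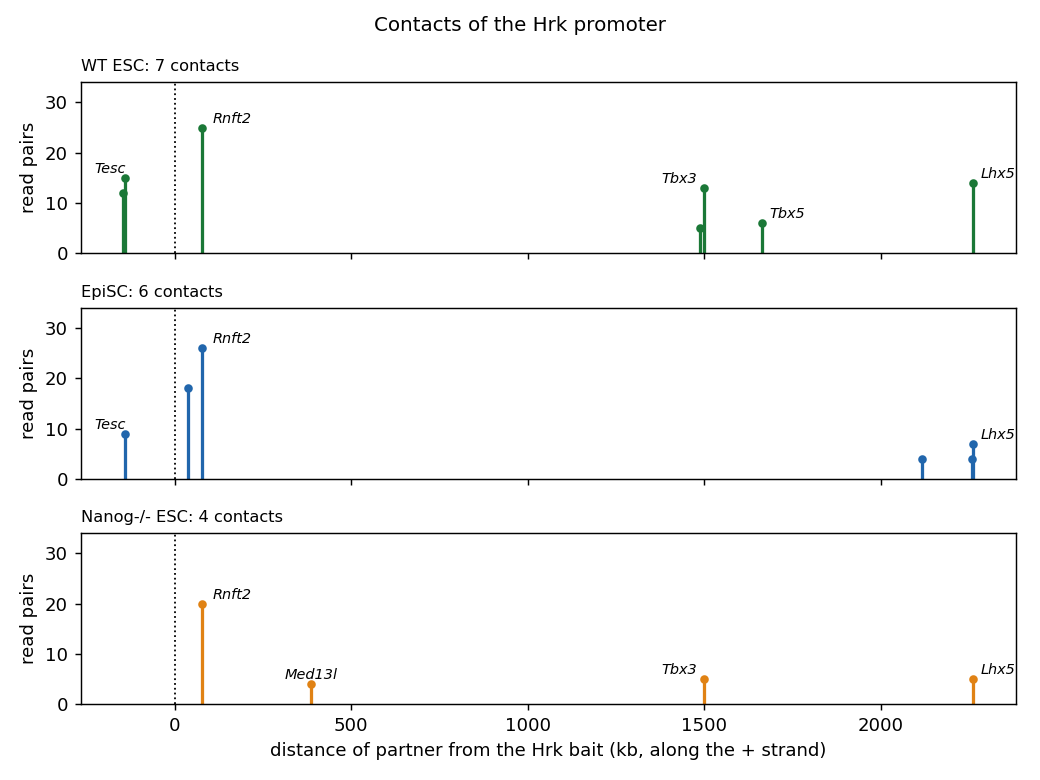
Read pairs (vertical axis) of each Hrk contact against its distance from the bait in kb (horizontal axis), 1 panel per cell state, with baited partners named. The Lhx5 contact at 2262 kb appears in all 3 panels, with 14, 7 and 5 read pairs, and the Tbx3 contact at 1500 kb in the panels of the ESC lines.

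The promoter window of Hrk at chr5:118169514-118169813 (plus strand) is shown as the anchor of these long-range contacts. It held 29 CpG dinucleotides (capitals), a count reached by 12.9% of windows.
Hrk promoter: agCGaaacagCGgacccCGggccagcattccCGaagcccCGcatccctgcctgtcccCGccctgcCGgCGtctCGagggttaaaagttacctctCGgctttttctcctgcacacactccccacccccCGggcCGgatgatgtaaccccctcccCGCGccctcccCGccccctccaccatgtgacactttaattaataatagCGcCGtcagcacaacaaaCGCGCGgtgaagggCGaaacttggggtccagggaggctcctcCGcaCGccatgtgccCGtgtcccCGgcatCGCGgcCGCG
Of the 10 members, 9 had RefSeq promoter windows, some of them several. The others ran from 1 CpG in a window of Bcl2l1 to 39 in one of Bbc3, with 19 for Bax, 11 for Bak1 and 22 for Bid. Each motif was searched on both strands, and no match says only that the letters are not in the window. TATAAA and ATGCAAAT, found in 13.6% and 1.74% of all windows, were in no member's window. CACGTG, found in 7.15%, occurred in those of Bax (2 matches) and Bbc3 (1).

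Changes in contacts and RNA were set side by side for the 9 members. Bcl2 had more contacts and more RNA in EpiSCs, Mcl1 more contacts and less RNA, and Bax fewer contacts with a scaled difference in RNA of -0.62 (0.29 unscaled). Over 15257 genes with both values, 14.3% of the 2453 whose contacts were at least 2-fold higher in EpiSCs were also at least 2-fold higher in RNA, against 10.6% of the 8606 whose contacts lay within 2-fold and 7.60% of the 4198 whose contacts were at least 2-fold lower. At least 2-fold lower RNA was found for 8.28%, 10.5% and 8.93% of these genes.

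**Figure D5:**
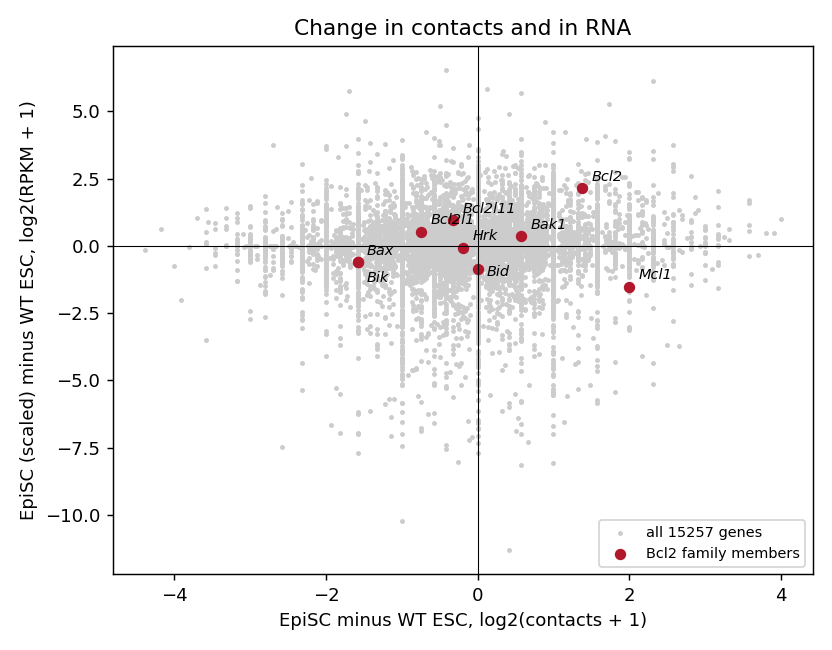
Difference between EpiSCs and WT ESCs in log2(RPKM + 1), with EpiSCs scaled (vertical axis), against that in log2(contacts + 1) (horizontal axis), for 15257 genes in grey and the 9 members in red. Bcl2 lies at the upper right, with 38 against 14 contacts, Mcl1 at the lower right, and Bax and Bik share a point at the left.

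The wider apoptosis pathway was described by 6 lists of other genes, with 32 of 49 listed genes measured. Of 10 other Bcl2 family genes measured, 3 were more than 2-fold lower in EpiSCs and none higher, where 9.66% and 10.4% of all genes were. Without scaling, 2 were lower and 2 higher (Bcl2l2 at 1.68 and Bad at 1.48), where 5.78% and 30.1% were. The median was -0.20 (0.18 unscaled). The 3 lower genes were Pmaip1, which encodes the BH3-only protein NOXA (16.8 RPKM in WT ESCs, 1.62 in EpiSCs, -2.77), Bnip3, which acts in mitophagy (350.0 and 104, -1.74, or -0.84 unscaled), and Bcl2l14 (2.47 and 0.0636, -1.71). Pmaip1 was also the only gene of the 6 lists past 2-fold in Nanog-/- ESCs, at 46.2 RPKM and a difference of 1.41. That is 1 of 32 measured genes, where 1.69% of all genes were more than 2-fold higher and 1.35% lower.

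The death receptor list had 2 of 6 measured genes more than 2-fold higher in EpiSCs (6 of 6 without scaling), where 10.4% of all genes were (30.1% without scaling). They were the receptor genes Tnfrsf1a (4.26 and 24.5 RPKM, 2.28) and Fas (0.858 and 4.29, 1.51), and the list's median was 0.72 (1.59 without scaling). Of 5 p53 genes measured, the cell cycle inhibitor Cdkn1a was more than 2-fold higher (58.7 and 150.0 RPKM, 1.34) and none lower, with a median of 0.38, and 3 were higher without scaling. None of the 5 genes of the apoptosome and caspases, 3 of the IAPs or 3 mitochondrial channels (Vdac1, Vdac2 and Vdac3) passed 2-fold in either direction, with medians of 0.58, 0.17 and -0.69, the last of them 0.23 without scaling. Without scaling, 3, 2 and 0 of them were more than 2-fold higher. In Nanog-/- ESCs the medians of the 6 lists ran from -0.25 to 0.29.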

How the data were processed

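RNA-seq and PCHi-C tables of WT ESCs, EpiSCs and Nanog-/- ESCs were used. The ChIP-seq samples were not used here. By the study's methods and the submitters' processing notes, PCHi-C reads were mapped to GRCm38 with HiCUP, which uses Bowtie (1.1.0 in those notes), and interactions of HindIII fragments were called with CHiCAGO on 2 biological replicates that were normalized and combined. The lists deposited by the authors give per interaction a count of read pairs and a CHiCAGO score, with no score under 5. RNA-seq reads were processed with Trim Galore and TopHat, and the authors deposited RPKM as 1 median per cell type. The deposited log2 fold changes and p-values of the authors' own comparisons, for which the notes name DESeq2, were not used.

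The RNA column named BT12 was taken as Nanog-/- ESCs from the series design text. The labels give the strain C57BL/6 for all samples, and the growth protocol gives 129P2/OlaHsd and 129S2. The count of sample columns of no use here was 0.

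Where both ends of a pair were baits, the entry of higher score stood for the pair, and the read counts of the 2 ends differed for 29, 13 and 1217 pairs in WT ESCs, EpiSCs and the Nanog-/- line. Distances are between fragment midpoints. All 121 fragments of members and partners had HindIII sites at both ends in GRCm38. Gene positions are those of GENCODE. EpiSC RPKM was divided by the median ratio over genes at 1 RPKM or more in both states, and differences were taken with a pseudocount of 1. The members and lists were chosen with earlier results of these data known. Named were all members, their highest-scoring, long-range, shared and baited partners, and up to 4 genes per pathway list past 2-fold. The intronic stretch of Bcl2 and the displayed fragments were chosen after their values were seen. The scaling of RPKM and the 2-fold calls were tested on simulated data. Only genes at 10 RPKM or more were changed there, all of them upward. Low genes such as Bcl2 and downward changes were not covered by it. The counts, sharing and distances of contacts were not tested in that way. Python 3.11.15, numpy 2.4.6, pandas 2.3.3, scipy 1.17.1 and matplotlib 3.10.9 were used.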

Additional observations from a re-analysis of the deposited data

How the results depend on the processing

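No paired analysis was possible because the files hold 1 combined value per cell type, and no replicate was left out for the same reason. All values rest on the authors' medians and combined lists, and the number of sequenced reads behind each is unknown, so that error between replicates is not included.

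The median difference of the 9 members moved by less than 1.5-fold under each scaling and pseudocount tried (EpiSCs -0.13 to 0.42, Nanog-/- ESCs 0.26 to 0.46). In EpiSCs this median was in each setting the value of Hrk, a low gene at 0.927 RPKM in WT ESCs. It therefore does not describe the family. Without scaling, every other member moved by more than 1.5-fold, such as Mcl1 from -1.52 to -0.61. The signs of single members changed only without scaling, for 4 members. Genes past 2-fold in EpiSCs numbered 1633 higher and 1512 lower, against 2569 and 2388 with a pseudocount of 0.1, 2855 and 2721 at 1.5-fold, and 4702 and 904 without scaling. In Nanog-/- ESCs they numbered 264 and 212, against 884 and 549 with a pseudocount of 0.1 and 980 and 702 at 1.5-fold. Without scaling, an alternative chosen after seeing the data for the pathway lists, their EpiSC medians were 1.47 for the apoptosome and caspases, 1.07 for the IAPs, 1.59 for death receptors, 1.29 for p53 genes and 0.23 for the channels.

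The members' contacts in WT ESCs, EpiSCs and the Nanog-/- line numbered 31, 40 and 13 at a score of at least 7, 14, 21 and 5 at a score of at least 10, and 34, 46 and 9 with at least 10 reads. Without contacts to other baited fragments they numbered 32, 50 and 10. The share of WT ESC contacts also listed in EpiSCs and Nanog-/- ESCs was 60.0% and 40.0% when a neighbouring fragment counted too. The contacts of all baits gave 51.8% and 53.4% in that setting. For WT ESC contacts with a score of at least 7 the members' shares were 61.3% and 48.4%, and those of all baits 57.9% and 60.6%. The smaller counts follow from the stricter limits themselves.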

Other observations

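Contacts of the wider pathway genes belong to no comparison above. Fadd, the adaptor of death receptors, had 18 contacts in WT ESCs, 23 in EpiSCs and 17 in the Nanog-/- line, and Tnfrsf1a had 13, 13 and 14, although the RPKM of Tnfrsf1a was 4.26, 24.5 (scaled) and 5.52. Bok, a BAX-like gene, had 14, 3 and 8 contacts with an RPKM of 19.8, 20.7 and 18.9. Bcl2l10, an oocyte-expressed family gene, had 14, 1 and 16 contacts and an RPKM of 0.274 in WT ESCs, 0.553 in Nanog-/- ESCs and 0 in EpiSCs. Contacts over 800 kb were found in EpiSCs for Casp6 (1 of 9) and Ccng1 (2 of 5), and for no other gene of these lists in any state. These genes were chosen after their values were seen.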
